A study of Mus musculus with 4 samples.

Results

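The genes described here are 9 known inhibitors or feedback regulators of NF-kB and of TNF signalling, taken by symbol from the gene list of the count matrices, of 32285 genes in all. They are Nfkbia, Nfkbib and Nfkbie, which encode the classical inhibitors IκBα, IκBβ and IκBε; Nfkbid, Nfkbiz and Bcl3, which encode the atypical nuclear IκB proteins; and Tnfaip3, Tnip1 and Tnip3, which encode the ubiquitin-editing enzyme A20 and its binding partners ABIN1 and ABIN3. No measured value entered the choice, but it was made with earlier results of these data known. All 9 genes were found under a single identifier each.

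The study addressed how loss of TRIF, the adaptor of Toll-like receptors TLR3 and TLR4 encoded by Ticam1, alters what spleen cells do when a mouse is injected with TNF. Spleens came from mice 10 weeks old, 4 h after an intravenous injection of 100 µl, and were profiled as droplet-based single-cell RNA libraries, with 1 library in each of 4 groups. WT_PBS and WT_TNF were C57BL/6 mice that received PBS or 9 µg of recombinant murine TNF, and TRIF-KO_PBS and TRIF-KO_TNF were TRIF-KO mice on a C57BL/6 background given the same injections. Red cells had been lysed and dead cells removed in every group, and the sources do not state the number of mice behind a library. Series of 4 values are always given in the order WT_PBS, WT_TNF, TRIF-KO_PBS and TRIF-KO_TNF.

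In resting cells NF-kB dimers are held in the cytoplasm by IκB proteins. TNF, acting through its receptor TNFR1, activates the IKK complex, which marks IκBα for degradation, and the freed dimers then transcribe Nfkbia and Tnfaip3 among many other genes, so that the pathway restores its own inhibitors. A20 and the ABIN proteins act upstream on the ubiquitin chains that carry the receptor signal, while Bcl3, IκBζ (Nfkbiz) and IκBNS (Nfkbid) sit in the nucleus and modify which NF-kB targets are transcribed.

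The libraries held 2683, 6855, 6508 and 8060 barcodes, of which 2448, 4966, 5364 and 6606 cells were kept, with a median of 6872, 4661, 4406 and 7195.5 UMIs (unique molecular identifiers, each standing for 1 captured RNA molecule). Between 3 and 15 barcodes were shared by any pair of libraries. Cells over the limit of 10% mitochondrial UMIs made up 6.26%, 22.4%, 10.8% and 11.6% of barcodes, so that RNA quality differed between libraries along with the groups. With 1 library in each group there is no replicate check and no test. Every interval below is a 95% interval for counting error only, it does not cover the spread between mice, and at least 2-fold is used as a fixed limit of size. Ticam1 was detected in TRIF-KO libraries (160 and 185 UMIs in B-like cells after PBS and TNF, against 77 and 68 in WT), but a 3′ tag outside a deleted part does not check the genotype.

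Cells were clustered without these 9 genes or other response genes, and 6 classes with at least 50 cells in every library were compared, each named from its RNA markers. B-like cells numbered 1205, 2692, 2842 and 2931 and T-like cells 456, 1073, 1292 and 1365. NK-like cells numbered 68, 71, 135 and 73, and dendritic-like cells 54, 151, 125 and 161. The counts were 167, 82, 101 and 354 for the neutrophil-like class and 132, 166, 224 and 333 for the monocyte/macrophage-like class. The neutrophil-like and the monocyte-like cells came mostly or wholly from different clusters after PBS and after TNF. By contrast, 1 macrophage-like cluster held 52, 114, 110 and 246 cells and 1 dendritic-like cluster 25, 96, 62 and 112. Another dendritic-like cluster also held cells of all 4 libraries, but few of WT_PBS (3, 55, 13 and 47). After PBS nearly all neutrophil-like cells (162 of 167 and 97 of 101) came from a cluster led by Cxcr2, Csf3r and Il1b, and after TNF they all came from one led by the granule genes Camp, Ngp and Lcn2. Monocyte-like cells of the PBS and TNF libraries shared no cluster, the latter being led by Saa3, Ms4a6d and Sod2. Levels are in CPM, the UMIs of a gene for every 1000000 UMIs of that class and library. To count as measured in a class, a gene needed 100 UMIs summed across libraries, 20 CPM in 1 library or more, and no less than 5% of its level in any other class of the same library. By this rule 8 of 9 genes were measured in the T-like class and in each of the 3 myeloid classes, 7 in B-like cells and 3 in NK-like cells. Tnip3 was measured in none.

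The genes lie on 7 chromosomes of mouse build GRCm38 as GENCODE annotates it. Nfkbia (ENSMUSG00000021025) spans 55489410 to 55492647 of chromosome 12 on the minus strand, and Tnfaip3 (ENSMUSG00000019850) spans 19000910 to 19015657 of chromosome 10 on the minus strand. Chromosome 7 carries Bcl3 (ENSMUSG00000053175, 19808462 to 19822770, minus), Nfkbib (ENSMUSG00000030595, 28758251 to 28767512, minus) and Nfkbid (ENSMUSG00000036931, 30421732 to 30428746, plus). Nfkbie (ENSMUSG00000023947) spans 45555703 to 45563169 of chromosome 17 on the plus strand, and Nfkbiz (ENSMUSG00000035356) spans 55811375 to 55838899 of chromosome 16 on the minus strand. Tnip1 (ENSMUSG00000020400) lies at 54910785 to 54962917 of chromosome 11 on the minus strand, and Tnip3 (ENSMUSG00000044162) at 65525313 to 65634040 of chromosome 6 on the plus strand.

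The 250 bases upstream of the annotated start are shown for 4 of these genes, because their RNA was at least 2-fold higher after TNF in the neutrophil-like and the monocyte/macrophage-like cells of both genotypes. The sequences are RefSeq's for GRCm38.p6, written 5′ to 3′ on the gene's strand, and capitals mark each match to the 10-base NF-kB consensus on either strand, with overlapping matches run together.
Nfkbia, chr12:55492648-55492897, minus strand: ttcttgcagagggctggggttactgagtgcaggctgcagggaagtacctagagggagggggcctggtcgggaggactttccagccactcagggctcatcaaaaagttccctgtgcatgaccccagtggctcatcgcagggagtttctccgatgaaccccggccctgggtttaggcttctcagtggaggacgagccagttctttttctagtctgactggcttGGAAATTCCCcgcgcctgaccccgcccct
Nfkbie, chr17:45555450-45555699, plus strand: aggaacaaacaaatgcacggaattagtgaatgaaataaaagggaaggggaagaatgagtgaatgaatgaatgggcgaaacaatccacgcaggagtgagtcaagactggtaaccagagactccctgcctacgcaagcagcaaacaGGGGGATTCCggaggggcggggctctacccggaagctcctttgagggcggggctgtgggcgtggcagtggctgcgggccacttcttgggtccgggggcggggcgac
Tnfaip3, chr10:19015411-19015660, minus strand: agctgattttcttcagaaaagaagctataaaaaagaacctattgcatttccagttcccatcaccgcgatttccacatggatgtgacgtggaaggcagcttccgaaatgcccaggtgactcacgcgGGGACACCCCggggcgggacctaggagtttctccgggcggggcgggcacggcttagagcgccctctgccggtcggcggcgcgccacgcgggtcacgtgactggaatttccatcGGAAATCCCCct
Tnip1, chr11:54962941-54963190, minus strand: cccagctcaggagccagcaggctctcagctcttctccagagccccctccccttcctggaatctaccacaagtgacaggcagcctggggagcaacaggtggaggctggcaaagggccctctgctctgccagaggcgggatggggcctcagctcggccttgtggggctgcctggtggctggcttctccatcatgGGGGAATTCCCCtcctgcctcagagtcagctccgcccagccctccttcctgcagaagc

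Promoter windows, 250 bases before to 50 after a start, were given for 8 of the 9 genes; Nfkbiz had none. A match was found in at least 1 window of 7 of these 8 genes, and in 9.55% of all 27025 genes with a window. Nfkbia had 1 match that began 29 bases before its start (GGAAATTCCC), Nfkbie had 1 that began 106 bases before (GGGGGATTCC), and Tnfaip3 had 2, at 125 (GGGACACCCC) and 12 bases (GGAAATCCCC) before. Tnip1 had 3 that overlap within 12 bases, the first beginning 58 bases before its start. Tnip3 had 1 at 54 bases before (GGGAAATCCC). Its window, 65590148 to 65590447, belongs to a start inside the GENCODE span given above, not to the start of that span. Bcl3 had 1 just after its start (GGGAAGTCCC), and Nfkbid had 2 in 1 of its 3 windows (GGGACTTCCC and GGAATTCCCC). Nfkbib had no match, which says only that these letters are not in this window. That window, 28766595 to 28766894, also lies inside the GENCODE span of its gene. A match describes letters, not a bound site.

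Of these genes Nfkbia had the most UMIs, and was found in the most kept cells, in every library. In B-like cells its level was 260, 245, 268 and 262 CPM, near the same in all 4 libraries. In T-like cells it was 193, 590, 167 and 360 CPM, and in NK-like cells 190, 859, 91.2 and 327 CPM. Both TNF libraries were above both PBS libraries in T-like and NK-like cells, and the WT_TNF library was the highest. The neutrophil-like level was 458, 2464, 313 and 1517 CPM and the dendritic-like level 359, 1184, 458 and 676 CPM. For the monocyte/macrophage-like class Nfkbia was at 342, 1694, 259 and 903 CPM, so that both TNF libraries led in each myeloid class. After TNF in WT the order of the classes was neutrophil, monocyte/macrophage, dendritic, NK, T and B, with no overlap between the counting intervals of neighbours. In TRIF-KO after TNF the order was the same except that T-like and NK-like cells changed places with overlapping intervals. After PBS the order was less sharp and differed between genotypes. For WT it was neutrophil, dendritic, monocyte/macrophage, B, T and NK, where dendritic-like and monocyte/macrophage-like cells overlapped, as did T-like and NK-like cells. For TRIF-KO it was dendritic, neutrophil, B, monocyte/macrophage, T and NK. There B-like cells overlapped with both neutrophil-like and monocyte/macrophage-like cells.

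**Figure D1:**
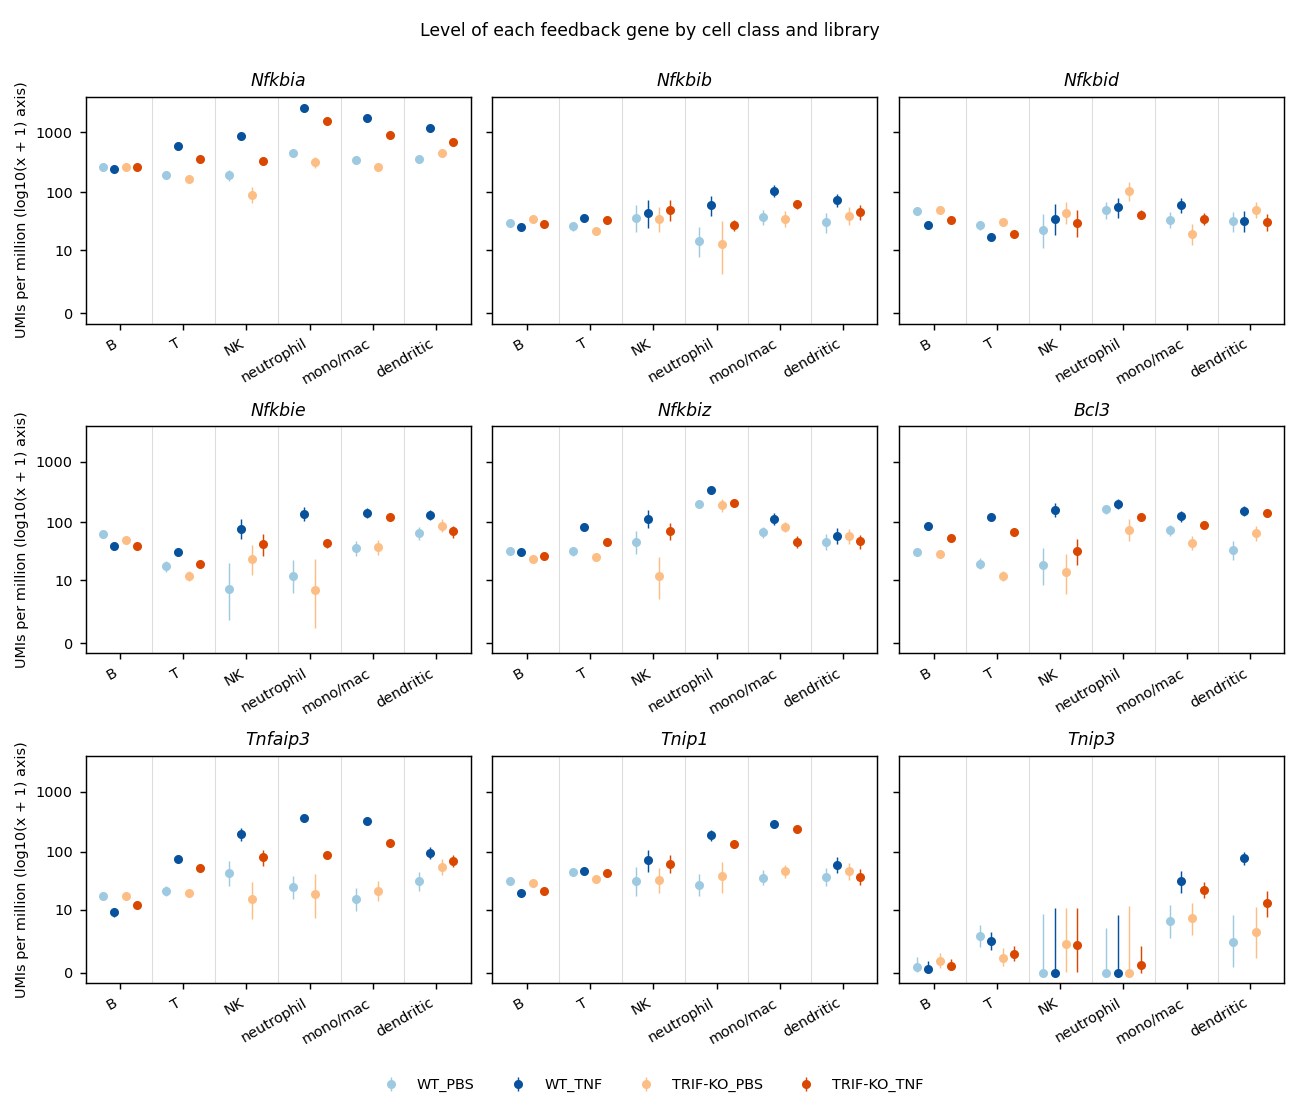
Level of each of the 9 genes in the 6 cell classes, on a log10(CPM + 1) axis; each point is 1 library (pale and dark blue WT after PBS and TNF, pale and dark orange TRIF-KO after PBS and TNF) and each bar its 95% counting interval. The 2 dark points of Nfkbia and Tnfaip3 sit above the 2 pale points in every class but B, where Nfkbia stays between 245 and 268 CPM.

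Expressed as ratios, Nfkbia after TNF in WT was 5.38-fold higher in neutrophil-like cells (counting interval 4.78 to 6.06), 4.95-fold in monocyte/macrophage-like cells (4.43 to 5.53) and 4.51-fold in NK-like cells (3.52 to 5.84). In TRIF-KO the same ratios were 4.84 (3.96 to 5.98), 3.48 (3.09 to 3.93) and 3.58 (2.57 to 5.08). T-like cells had 3.06-fold (2.85 to 3.30) in WT and 2.16-fold (2.03 to 2.30) in TRIF-KO. The response on the log2 scale was smaller in TRIF-KO than in WT by a counting interval that left out 0 in T-like cells (difference -0.50, -0.64 to -0.37), monocyte/macrophage-like cells (-0.51, -0.74 to -0.28) and dendritic-like cells (-1.16, -1.42 to -0.90). For neutrophil-like cells the difference was -0.16 (-0.49 to 0.18) and for NK-like cells -0.34 (-0.92 to 0.25), so that these intervals included 0.

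The classical inhibitors Nfkbie and Nfkbib, whose products hold NF-kB dimers in the cytoplasm as IκBα does, had lower counts. Nfkbie was at 12.1, 137, 6.46 and 43.8 CPM in neutrophil-like cells, from 10, 64, 2 and 134 UMIs. It was at 36.0, 143, 38.2 and 120 CPM in monocyte/macrophage-like cells, both TNF libraries being above both PBS libraries. In B-like cells the direction was the other way, at 62.4, 39.4, 49.2 and 39.0 CPM, each TNF library lying below the PBS library of its genotype. The ratio of TNF to PBS in WT was 11.3 (5.77 to 24.7) in neutrophil-like and 3.98 (2.79 to 5.76) in monocyte/macrophage-like cells, and in TRIF-KO it was 6.78 (1.84 to 56.5) and 3.14 (2.30 to 4.37).

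Nfkbib was at 14.5, 60.0, 12.9 and 27.8 CPM in neutrophil-like cells and at 37.6, 105, 35.8 and 62.7 CPM in monocyte/macrophage-like cells. The WT_TNF library was the highest in both classes. After TNF in WT it was 4.12-fold higher in neutrophil-like cells (2.03 to 8.90) and 2.79-fold in monocyte/macrophage-like cells (1.92 to 4.09). The neutrophil ratios rest on 12, 28, 4 and 85 UMIs, and with the UMIs thinned to the smallest total of the class the WT value was 0.89 on the log2 scale, under 2-fold. In TRIF-KO neutrophil-like cells the ratio was 2.15, with an interval that included no change (0.81 to 8.07), and 0.32 on the log2 scale with thinned UMIs. B-like cells had 30.5, 25.7, 34.8 and 28.7 CPM and T-like cells 26.8, 37.4, 22.3 and 34.5 CPM, so that no ratio of TNF to PBS reached 2-fold there.

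Among the genes of atypical IκB proteins, Bcl3, whose product binds NF-kB dimers without a transactivation domain of their own, was higher after TNF in lymphoid classes too. In B-like cells it was at 31.7, 85.0, 29.2 and 54.3 CPM, and in T-like cells at 19.7, 122, 12.1 and 69.3 CPM. Both TNF libraries stood above both PBS libraries in these classes. The ratio in WT was 2.68 (2.35 to 3.08) in B-like and 6.22 (4.996 to 7.84) in T-like cells. In TRIF-KO it was 5.71 (4.63 to 7.11) in T-like cells, whereas in B-like cells the log2 value was 0.89 (0.72 to 1.07), under 2-fold. Neutrophil-like cells held Bcl3 at 162, 201, 74.3 and 120 CPM, already high after PBS in WT, and neither genotype reached 2-fold with TNF. Dendritic-like cells had 33.3, 153, 64.5 and 142 CPM, a ratio of 4.60 (3.06 to 7.11) in WT and 2.21 (1.60 to 3.09) in TRIF-KO.

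Nfkbiz encodes IκBζ, a nuclear cofactor needed for a subset of secondary NF-kB targets. Its highest level in every library was in neutrophil-like cells, at 200, 347, 191 and 211 CPM, with no overlap with the next class. T-like cells had 32.0, 82.5, 26.0 and 46.1 CPM, 2.58-fold higher with TNF in WT (2.15 to 3.12) and 0.83 on the log2 scale in TRIF-KO (0.60 to 1.06). In monocyte/macrophage-like cells it was at 68.2, 112, 82.6 and 46.5 CPM. There the WT library was higher after TNF, by 0.71 on the log2 scale (0.26 to 1.17), and the TRIF-KO library lower, at -0.83 (-1.26 to -0.41). Within the monocyte-like cells alone the values were 69.6, 104, 93.9 and 50.05 CPM, with the same pair of directions, 0.58 (0.07 to 1.09) and -0.91 (-1.37 to -0.45). The macrophage-like cells had 51.1, 134, 24.0 and 36.6 CPM from 5, 24, 5 and 18 UMIs, and there TRIF-KO stood at 0.60 with an interval of -0.88 to 2.39.

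Nfkbid encodes IκBNS, a nuclear inhibitor with a role in B-cell development. Its ratio of TNF to PBS reached 2-fold in either direction only in the neutrophil-like cells of TRIF-KO, among the 5 classes in which it was measured. In B-like cells it was at 48.7, 28.3, 49.9 and 34.2 CPM, and in T-like cells at 27.5, 17.3, 31.8 and 19.5 CPM. Each TNF library of these 2 classes was below the PBS library of its genotype, by -0.78 (-0.99 to -0.58) and -0.54 (-0.70 to -0.39) on the log2 scale in B-like cells of WT and TRIF-KO. In neutrophil-like cells Nfkbid was at 49.7, 55.7, 103 and 42.1 CPM, the TRIF-KO_PBS library being the highest from 32 UMIs. The TRIF-KO ratio of TNF to PBS there was 0.408 (0.275 to 0.621), and on the median-of-ratios scale its log2 value was -0.96, just under 2-fold.

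Tnfaip3, the gene of A20, had the largest ratios of the 8 genes measured in monocyte/macrophage-like cells. It was at 15.7, 329, 21.8 and 142 CPM there, from 20, 239, 28 and 263 UMIs. In neutrophil-like cells it was at 25.5, 371, 19.4 and 87.9 CPM, from 21, 173, 6 and 269 UMIs. Both TNF libraries were above both PBS libraries in these classes, and WT_TNF was far above TRIF-KO_TNF. The ratio of TNF to PBS in monocyte/macrophage-like cells was 21.0 in WT (13.3 to 35.0) and 6.51 in TRIF-KO (4.40 to 9.99). In neutrophil-like cells it was 14.6 in WT (9.23 to 24.1) and 4.53 in TRIF-KO (2.06 to 12.5). The TRIF-KO response was thus smaller on the log2 scale by -1.68 (-2.54 to -0.82) and -1.77 (-3.06 to -0.47). With each neutrophil-like cell weighted equally the second difference was -0.95, under 2-fold.

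The lymphoid classes carried Tnfaip3 at lower levels. T-like cells had 21.4, 77.0, 19.8 and 53.8 CPM, a ratio of 3.59 in WT (2.88 to 4.50) and 2.71 in TRIF-KO (2.28 to 3.24). NK-like cells had 44.1, 198, 15.9 and 80.3 CPM, a ratio of 4.48 (2.65 to 7.90) and 5.06 (2.35 to 12.5). B-like cells had 17.8, 9.06, 18.0 and 12.0 CPM and did not reach the level at which a gene counted as measured. Each TNF library was below its PBS library in B-like cells, by -0.98 (-1.34 to -0.62) and -0.58 (-0.85 to -0.31) on the log2 scale. After TNF in WT the order of the classes was neutrophil and monocyte/macrophage with overlapping intervals, then NK, then dendritic and T with overlapping intervals, then B.

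Tnip1, whose product ABIN1 links A20 to ubiquitin chains, differed in its pattern from Tnfaip3 in T-like cells, where it was at 46.5, 47.2, 34.5 and 44.4 CPM. In neutrophil-like cells Tnip1 was at 27.9, 191, 38.8 and 134 CPM and in monocyte/macrophage-like cells at 36.8, 291, 47.5 and 243 CPM. Here both TNF libraries exceeded both PBS libraries. The ratio in monocyte/macrophage-like cells was 7.90 in WT (5.73 to 11.1) and 5.10 in TRIF-KO (3.90 to 6.78), and in neutrophil-like cells 6.84 (4.29 to 11.3) and 3.45 (1.95 to 6.73). Within the monocyte-like cells alone Tnip1 was at 33.9, 338, 50.2 and 273 CPM. The macrophage-like cells had 71.6, 146, 33.7 and 158 CPM, from 7, 26, 7 and 78 UMIs. WT_TNF was not above TRIF-KO_TNF there, so the larger WT ratio of the pooled class does not hold for that part. B-like cells had 32.3, 20.1, 29.9 and 21.6 CPM, lower after TNF in both genotypes by less than 2-fold.

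Tnip3, which encodes the inducible partner ABIN3, had few UMIs in any library, with 26, 104, 26 and 110 over all kept cells. Of the 104 UMIs in WT_TNF, 60 lay in dendritic-like cells, in 23 of 151 cells, and 22 of the 60 came from 1 cell. The dendritic-like level was 2.22, 77.2, 3.79 and 13.4 CPM, from 2, 60, 3 and 15 UMIs. In monocyte/macrophage-like cells it was 6.27, 31.7, 7.01 and 22.7 CPM, from 8, 23, 9 and 42 UMIs, and there the ratio of TNF to PBS was 5.06 in WT and 3.24 in TRIF-KO. Neutrophil-like cells held 0, 0, 0 and 1 UMIs, which allows levels of up to 4.47, 7.90, 11.9 and 1.82 CPM by the exact Poisson interval.

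**Figure D2:**
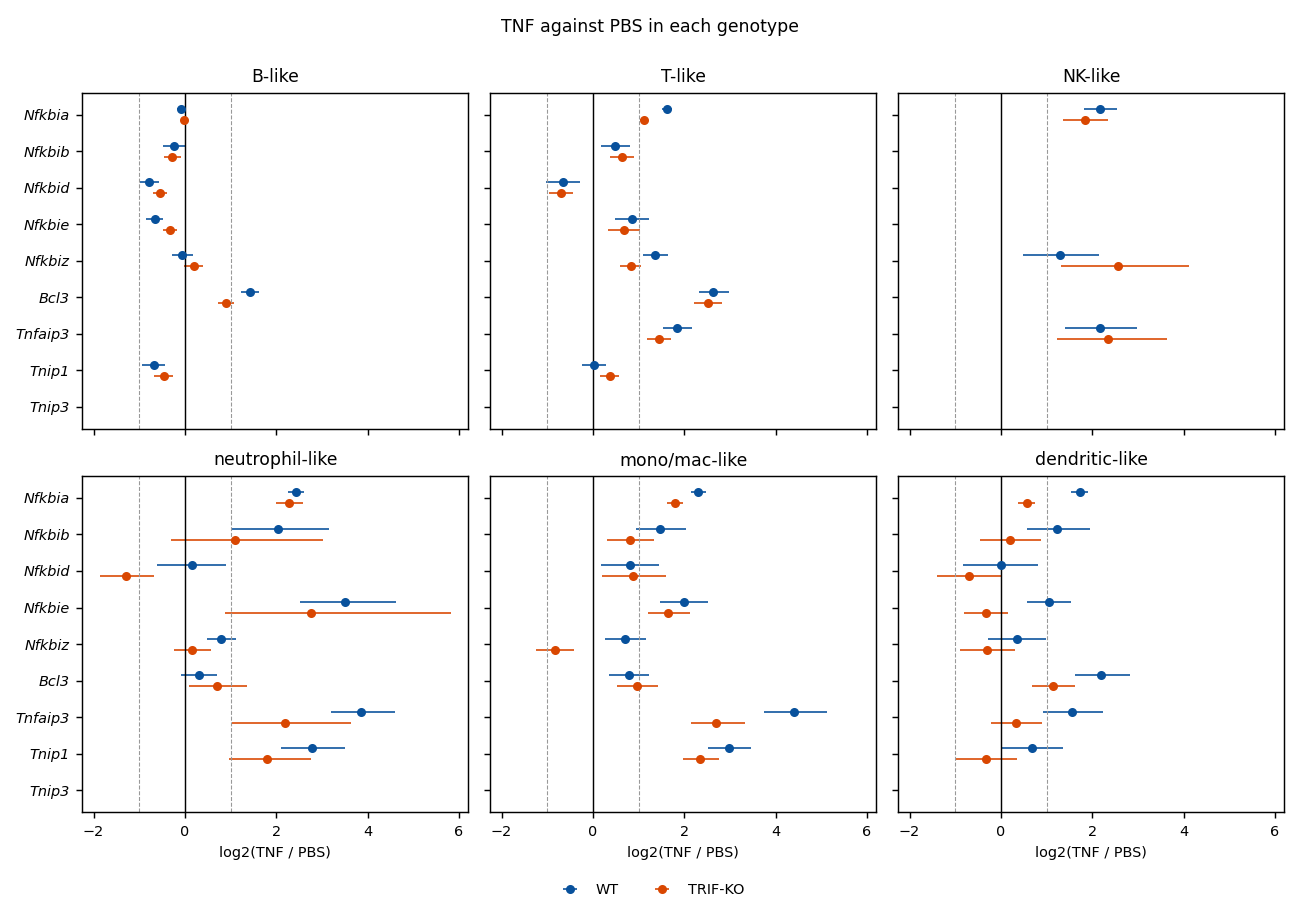
Log2 ratio of the TNF to the PBS library for each measured gene, one panel for each cell class; blue points are WT, orange points TRIF-KO, bars are 95% counting intervals and dashed lines mark 2-fold. In the monocyte/macrophage panel Tnfaip3 lies at 4.39 in WT and 2.70 in TRIF-KO, and Nfkbiz lies on opposite sides of 0.

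Each count of genes at least 2-fold higher or lower is given with the share of all measured genes of that class that met the same limit. In WT B-like cells 1 of 7 genes was higher after TNF (Bcl3; background 1.0% of 5891 genes) and 0 were lower (1.99%). In TRIF-KO B-like cells 0 of 7 were higher (1.0%) and 0 lower (0.458%). T-like cells had 4 of 8 higher in WT (2.62%) and 3 of 8 in TRIF-KO (1.69%), with 0 lower in either (4.96% and 0.874%). The genes in WT were Nfkbia, Nfkbiz, Bcl3 and Tnfaip3, and Nfkbiz was the one under 2-fold in TRIF-KO. NK-like cells had 3 of 3 higher in WT (4.06%) and 3 of 3 in TRIF-KO (3.03%), namely Nfkbia, Nfkbiz and Tnfaip3, with 0 lower (10.5% and 5.06%). The other 6 genes were not measured in NK-like cells. A gene that counts as measured only through the libraries in which it is high is favoured in such a count. These counts and the medians over measured genes are therefore descriptions. Not every such gene passed 2-fold. Nfkbie in T-like cells was under 20 CPM in both PBS libraries and was not called, at 17.7, 31.8, 11.9 and 19.1 CPM. In NK-like cells Nfkbiz and Tnfaip3 held 26 and 27 of their 101 and 135 UMIs in the PBS libraries, and Bcl3 in T-like cells was under 20 CPM in both.

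Neutrophil-like cells had 5 of 8 genes higher in WT (10.3%) and 5 of 8 in TRIF-KO (9.35%), namely Nfkbia, Nfkbib, Nfkbie, Tnfaip3 and Tnip1. Of these, Nfkbib and Nfkbie were under 20 CPM in both PBS libraries, with 16 and 12 UMIs there, and were measured only through the TNF libraries, while Tnfaip3 and Tnip1 needed the TNF libraries to reach 100 UMIs. The count of lower genes was 0 in WT (23.8%) and 1 in TRIF-KO (Nfkbid; 20.4%). Monocyte/macrophage-like cells had those 5 genes higher in WT (8.84%) and 4 of 8 in TRIF-KO (8.6%), Nfkbib being under 2-fold, with 0 lower in both (20.2% and 10.4%). Nfkbib, Nfkbie and Tnfaip3 held 94, 95 and 48 UMIs in the PBS libraries of this class and needed the TNF libraries to reach 100 UMIs. Dendritic-like cells had 5 of 8 higher in WT (7.91%), namely Nfkbia, Nfkbib, Nfkbie, Bcl3 and Tnfaip3, and 1 of 8 in TRIF-KO (Bcl3; 4.65%), with 0 lower (17.4% and 8.59%). There Nfkbib, Bcl3 and Tnfaip3, with 60, 81 and 73 UMIs in the PBS libraries, likewise needed the TNF libraries to reach 100 UMIs. With each dendritic-like cell weighted equally, Nfkbie and Tnfaip3 in WT were at 0.78 and 0.81 on the log2 scale, under 2-fold. The median log2 ratio over the 8 genes was 2.22 in WT and 1.34 in TRIF-KO neutrophil-like cells, against -0.29 and -0.37 over all measured genes. For monocyte/macrophage-like cells the medians were 1.73 and 1.30 against -0.25 and -0.02, and for T-like cells 1.10 and 0.75 against -0.17 and 0.06. For dendritic-like cells they were 1.13 in WT but -0.06 in TRIF-KO, against -0.23 and -0.04. For B-like cells they were -0.25 and -0.28 over 7 genes, against -0.17 and -0.01, and for NK-like cells 2.14 and 2.27 over 3 genes, against -0.15 and -0.10.

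In the direct comparison of genotypes after TNF, 2 of 3 genes were at least 2-fold lower in TRIF-KO NK-like cells (background 1.57%). They were Nfkbia, at 0.381 of the WT level (0.313 to 0.461), and Tnfaip3, at 0.406 (0.269 to 0.607). Neutrophil-like cells had 3 of 8 lower (5.22%). Tnfaip3 stood at 0.237 of the WT level there (0.195 to 0.289), Nfkbie at 0.319 (0.235 to 0.437) and Nfkbib at 0.463 (0.299 to 0.737). Monocyte/macrophage-like cells had 2 of 8 lower (1.46%), Nfkbiz at 0.416 (0.304 to 0.571) and Tnfaip3 at 0.431 (0.361 to 0.516). B-like, T-like and dendritic-like cells had 0 lower (0.187%, 0.874% and 1.44%).

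No measured gene of the 9 was at least 2-fold higher in TRIF-KO after TNF in any of the 6 classes. The shares of all genes that were higher there ran to 0.0509% in B-like, 0.393% in T-like and 1.92% in NK-like cells, and to 5.88% in neutrophil-like, 6.77% in monocyte/macrophage-like and 4.75% in dendritic-like cells. The median log2 ratio over the measured genes was -0.74 in neutrophil-like, -0.76 in monocyte/macrophage-like, -0.61 in T-like and -0.55 in dendritic-like cells, against -0.10, 0.14, 0.11 and 0.08 over all genes. In B-like cells it was 0.09 against 0.05.

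After PBS all 3 measured genes were at least 2-fold lower in TRIF-KO NK-like cells (background 1.28%, with 0 higher, 0.498%). The genes not measured in this class did not share that direction. In WT_PBS and TRIF-KO_PBS Nfkbid was at 23.2 and 45.6 CPM and Nfkbie at 6.97 and 23.8 CPM, higher in TRIF-KO. Nfkbib was at 37.2 and 35.7, Tnip1 at 32.5 and 33.7, Bcl3 at 18.6 and 13.9 and Tnip3 at 0 and 1.98 CPM. Nfkbia stood at 0.479 of WT (0.326 to 0.696), Tnfaip3 at 0.360 (0.136 to 0.860) and Nfkbiz at 0.256 (0.0842 to 0.661), on 82, 19 and 20 UMIs in WT and 46, 8 and 6 in TRIF-KO. Without doublet removal the log2 value of Nfkbia there was -0.81, under 2-fold. Nfkbia and Tnfaip3 were thus lower in TRIF-KO NK-like cells both after PBS and after TNF. In neutrophil-like cells 1 of 8 genes was higher after PBS (Nfkbid; 5.03%) and 1 was lower (Bcl3; 8.32%). With the cell richest in Nfkbid left out of each library, the gene stood at 0.93 on the log2 scale, and with no doublet removal Bcl3 stood at -0.74, both under 2-fold. No gene was called after PBS in the other classes, where the shares lower and higher were 0.238% and 0.136% in B-like, 0.464% and 0.125% in T-like, 2.18% and 2.26% in monocyte/macrophage-like and 2.76% and 3.23% in dendritic-like cells.

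**Figure D3:**
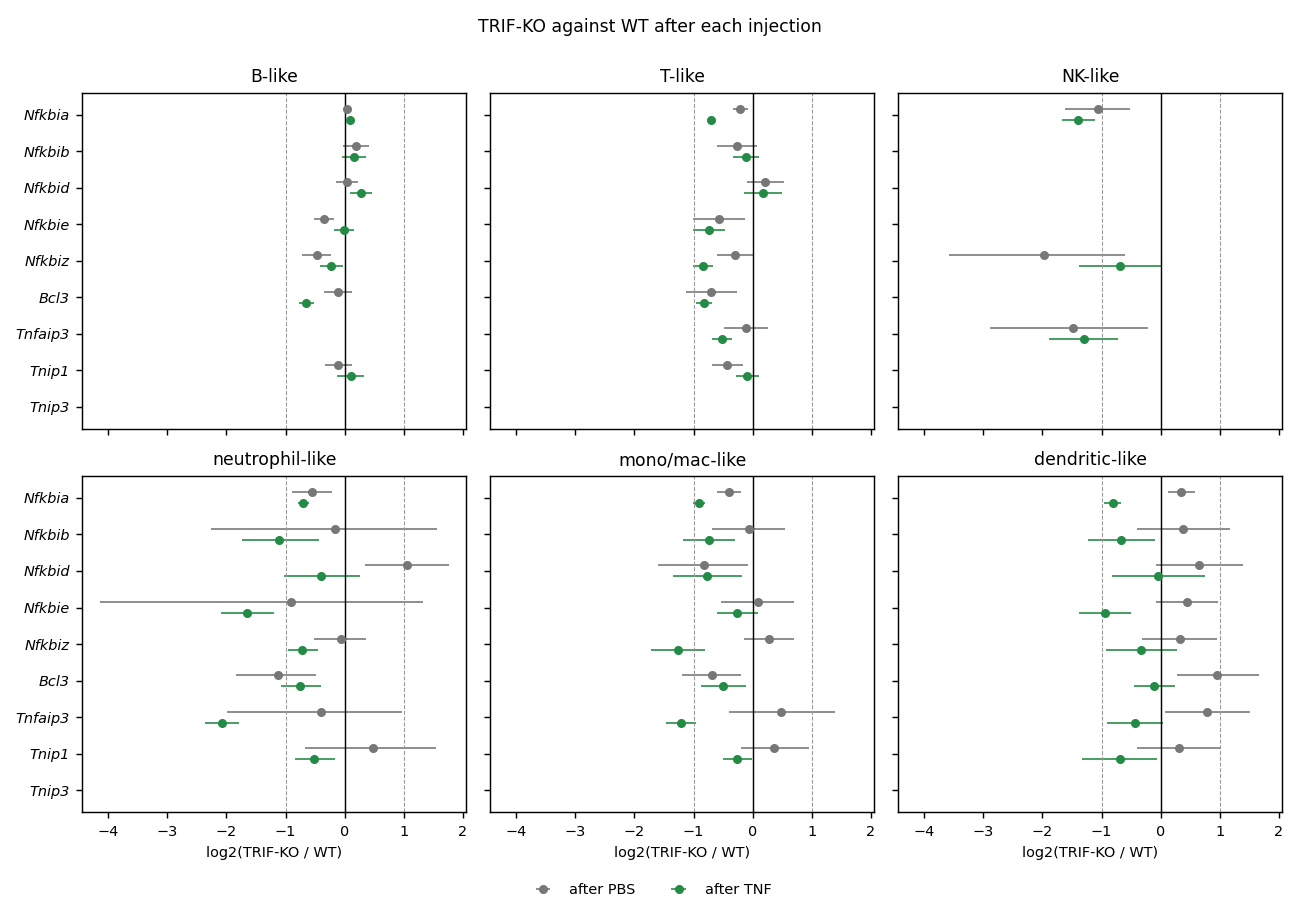
Log2 ratio of TRIF-KO to WT for each measured gene, one panel for each cell class; grey points compare the PBS libraries, green points the TNF libraries, bars are 95% counting intervals and dashed lines mark 2-fold. The green points of Tnfaip3 lie at -2.08 in neutrophil-like and -1.21 in monocyte/macrophage-like cells, and both NK-like points of Nfkbia and Tnfaip3 lie below -1.

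The log2 ratio of TNF to PBS was lower in TRIF-KO than in WT by at least 1 for 4 of 8 genes in neutrophil-like cells (Nfkbib, Nfkbid, Tnfaip3 and Tnip1; background 11.3%). It was so for 2 of 8 in monocyte/macrophage-like cells (Nfkbiz and Tnfaip3; 3.31%) and for 5 of 8 in dendritic-like cells (Nfkbia, Nfkbib, Nfkbie, Bcl3 and Tnfaip3; 5.26%). A lower ratio is not always a smaller response, since Nfkbid in neutrophil-like cells fell in TRIF-KO from 103 to 42.1 CPM and stood at 49.7 and 55.7 CPM in WT, and Nfkbiz in monocyte/macrophage-like cells went in opposite directions. No gene had the higher ratio in TRIF-KO by this limit in these 3 classes, where 11.6%, 10.3% and 10.7% of all genes did. In NK-like cells 1 of 3 did (Nfkbiz, 1.20 with an interval of -0.23 to 2.63; 4.63%) and 0 had the lower ratio (2.71%), and with thinned UMIs the value of Nfkbiz was 0.84.

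These counts depend on the setting in neutrophil-like and dendritic-like cells. With each cell weighted equally the neutrophil count was 1 in place of 4, as Nfkbib stood at -0.92, Tnfaip3 at -0.95 and Tnip1 at -0.995, and Nfkbie turned from -0.997 to 1.17. It was 2 with thinned UMIs and 2 at the limit of 5% mitochondrial UMIs. The dendritic count was 2 in place of 5 with equal weights, where Nfkbia stood at -0.99, Nfkbie at -0.73, Bcl3 at -0.44 and Tnfaip3 at -0.96 and Tnip1 came past the limit. It was 2 with no doublet removal, 3 in the Xcr1 cluster alone and 7 at clustering resolution 1. The share of all genes past this limit was not computed under these other settings, so their counts have no background beside them. In B-like and T-like cells no gene met the limit, where 0.424% and 0.803% of all genes had the lower and 0.577% and 2.09% the higher ratio in TRIF-KO. The comparisons of genotype and of treatment use the same 4 libraries, so they do not stand as separate evidence.

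Values that moved with these groups are as follows, and their part in the results was not tested. The 9 neutrophil markers, none of them at 0, summed to 188410, 256660, 208350 and 319790 CPM in the neutrophil-like cells, so that these RNAs filled a different part of the total in each library. Outside them the same markers summed to 42.8, 90.8, 19.96 and 187 CPM in B-like cells and to 37.5, 60.4, 11.5 and 159 CPM in T-like cells, the TNF libraries being higher. The 20 monocyte and macrophage markers, none at 0, summed to 11640, 12879, 11891 and 12958 CPM in their class. Macrophage-like cells made up 52 of 132, 114 of 166, 110 of 224 and 246 of 333 cells of that class, and the median depth of the class was 11637, 1421, 5053 and 1524 UMIs. Within the monocyte-like cells alone Tnfaip3 was at 17.0, 309, 17.7 and 131 CPM, but those cells of the PBS and TNF libraries shared no cluster. The macrophage-like cells had 0, 392, 43.3 and 173 CPM from 0, 70, 9 and 85 UMIs. The WT ratio in macrophage-like cells was at least 12.8-fold, taking 3 counts as the floor of the PBS library.

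The dendritic-like class was the least alike across libraries. Its median depth was 14302, 3801, 4602 and 4503 UMIs, and its 10 markers summed to 1483, 416, 1224 and 451 CPM, with Clec10a at 0 in WT_TNF. Its clusters also differed, as 1 cluster led by Cst3 and Xcr1 held 25, 96, 62 and 112 of the cells, while another led by Cd209a held 26, 0, 50 and 2, and a further one led by Fscn1 and Tbc1d4 held 3, 55, 13 and 47. In WT_PBS 1 cell of the Xcr1 cluster carried 5109 of the cluster's 5124 UMIs of neutrophil markers. Within the Xcr1 cluster alone, Nfkbia was at 202, 777, 176 and 359 CPM and Tnfaip3 at 18.8, 106, 20.8 and 43.8 CPM, from 9, 33, 6 and 24 UMIs. Both TNF libraries were above both PBS libraries for these 2 genes there. Tnip3, not measured in the class, was at 0, 173, 0 and 23.7 CPM in this cluster, from 0, 54, 0 and 13 UMIs. The 54 UMIs lay in 19 of 96 cells, and 22 of them came from 1 cell. After TNF the TRIF-KO level of Tnip3 was 0.137 of that in WT (0.0684 to 0.254). In that cluster TRIF-KO had 4 of 8 genes at least 2-fold higher with TNF instead of 1 (background 10.3% of 4236 genes), and 5 of 8 at least 2-fold lower than WT after TNF instead of 0 (4.2%). Of those 4 genes, Nfkbie at 2.18 (0.936 to 5.91) and Tnfaip3 at 2.11 (0.840 to 6.31) had intervals that included no change. The counts for dendritic-like cells therefore depend on which clusters are pooled.

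Subsets of B and T cells were named from their markers, and they take in some of the clusters of the 2 classes, not all. Nfkbia was at 301, 248.8, 307 and 282 CPM in follicular B-like cells and at 180, 199.7, 164 and 169 CPM in marginal zone B-like cells, so that both TNF libraries were below both PBS libraries in the follicular subset and each above its own PBS library in the marginal zone subset. The separate counting intervals of PBS and TNF overlapped in both subsets except for follicular cells of WT, and such overlap does not show equal levels. In CD4 T-like cells Nfkbia was at 180, 668, 156 and 389 CPM, in CD8 T-like cells at 195, 488, 175 and 254 CPM, and in regulatory T-like cells at 282, 958, 264 and 731 CPM. Each T subset had both TNF libraries above both PBS libraries, the regulatory cells being highest in all 4. For regulatory T-like cells, of which WT_PBS held 42, the TRIF-KO response differed from WT by -0.29 (-0.70 to 0.12), against -0.58 (-0.81 to -0.34) in CD4 and -0.79 (-1.01 to -0.57) in CD8 T-like cells.

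Tnfaip3 was at 14.8, 72.5, 15.4 and 53.1 CPM in CD4, at 21.6, 49.8, 21.2 and 35.3 CPM in CD8 and at 30.05, 218, 30.9 and 100 CPM in regulatory T-like cells. In follicular B-like cells Tnfaip3 was at 15.7, 8.31, 18.7 and 9.69 CPM and in marginal zone B-like cells at 20.03, 10.01, 10.7 and 9.36 CPM. The TNF libraries were the lower in both subsets. The separate counting intervals of PBS and TNF overlapped in both genotypes, which does not show that the levels were equal. Among T subsets the regulatory one was again the highest in every library, and in it TRIF-KO after TNF stood at -1.12 on the log2 scale from WT (-1.5025 to -0.75). Bcl3 was at 33.4, 96.0, 22.8 and 70.7 CPM in follicular and at 30.6, 69.6, 20.9 and 39.8 CPM in marginal zone B-like cells. All 4 TNF values lay above all 4 PBS values in these B subsets. Nfkbie had its higher B-cell level in the marginal zone subset, at 90.1, 46.3, 59.6 and 54.5 CPM, against 45.7, 29.5, 39.0 and 25.1 CPM in the follicular subset, with the lowest ratio of TNF to PBS in marginal zone cells of WT, -0.96 on the log2 scale (-1.32 to -0.61).

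**Figure D4:**
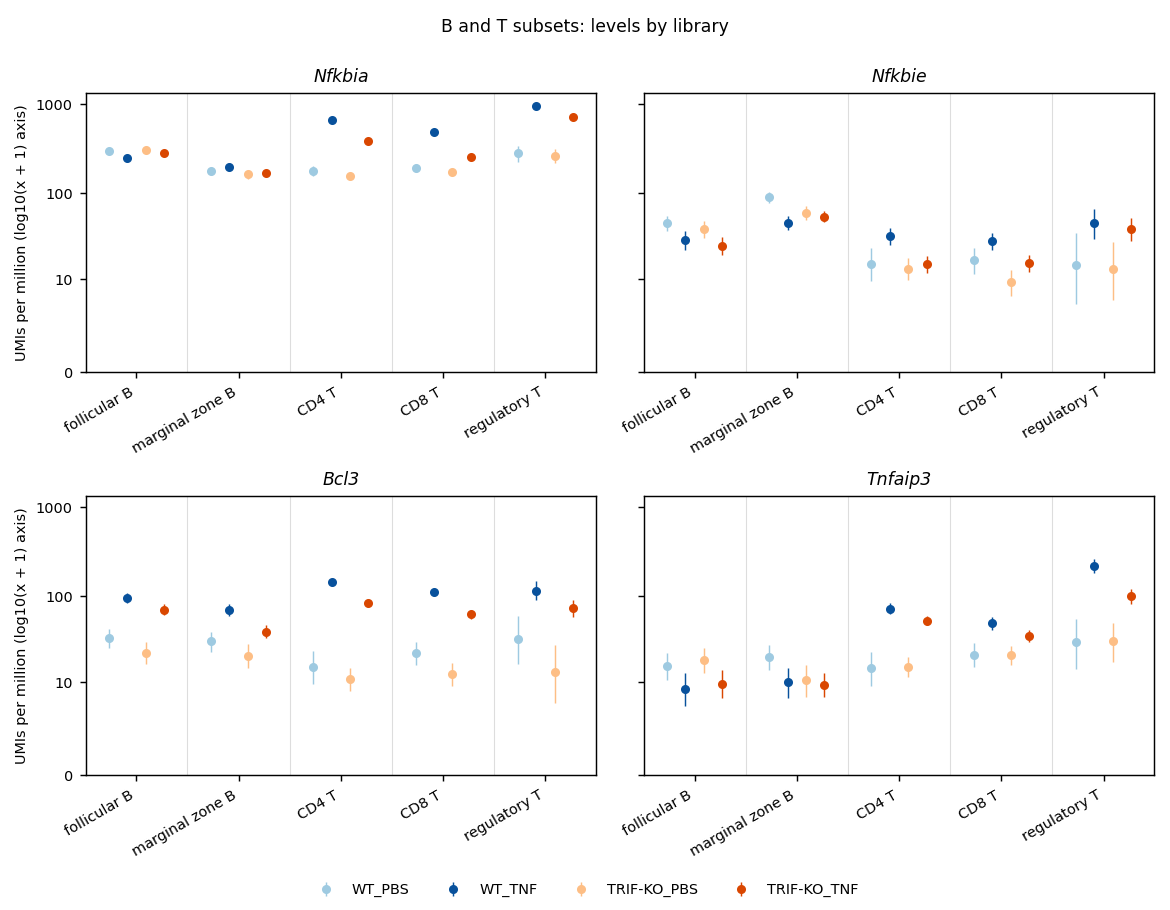
Levels of Nfkbia, Nfkbie, Bcl3 and Tnfaip3 in B and T subsets on a log10(CPM + 1) axis, 1 point for each library with its 95% counting interval, coloured as in the plot of all classes. In the T subsets both TNF points of Nfkbia and Tnfaip3 lie above both PBS points. In the B subsets those of Tnfaip3 lie below the PBS points, at 8.31 and 9.69 CPM against 15.7 and 18.7 CPM in follicular cells, whereas Bcl3 is above them in both.

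The share of cells with at least 1 UMI was set to a common depth of 1000 UMIs for each cell, leaving out shallower cells. For Nfkbia it was 15.3%, 42.5%, 13.7% and 28.2% of T-like cells, against 62.7%, 88.6%, 48.9% and 83.4% before thinning. Neutrophil-like cells had 34.5%, 88.5%, 22.0% and 73.3% at the common depth. For Tnfaip3 the thinned share was 2.89%, 30.8%, 1.57% and 10.6% of neutrophil-like cells and 1.32%, 28.7%, 2.75% and 12.0% of monocyte/macrophage-like cells, and 10.8%, 69.5%, 4.95% and 31.4% and 10.6%, 45.2%, 8.93% and 30.3% before thinning. Thinning left out 23, 62, 62 and 115 of the monocyte/macrophage-like cells and at most 4 neutrophil-like cells of a library. Erythroid-like cells served as a class outside the leukocytes, with Nfkbia in 7.80%, 11.7%, 5.95% and 6.60% of them before thinning. The thinned share there for Nfkbia was 0.962%, 1.32%, 0.570% and 0.489%, and for Tnfaip3 0.0382%, 0.162%, 0.0554% and 0.0686%, below every class in the same library.

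**Figure D5:**
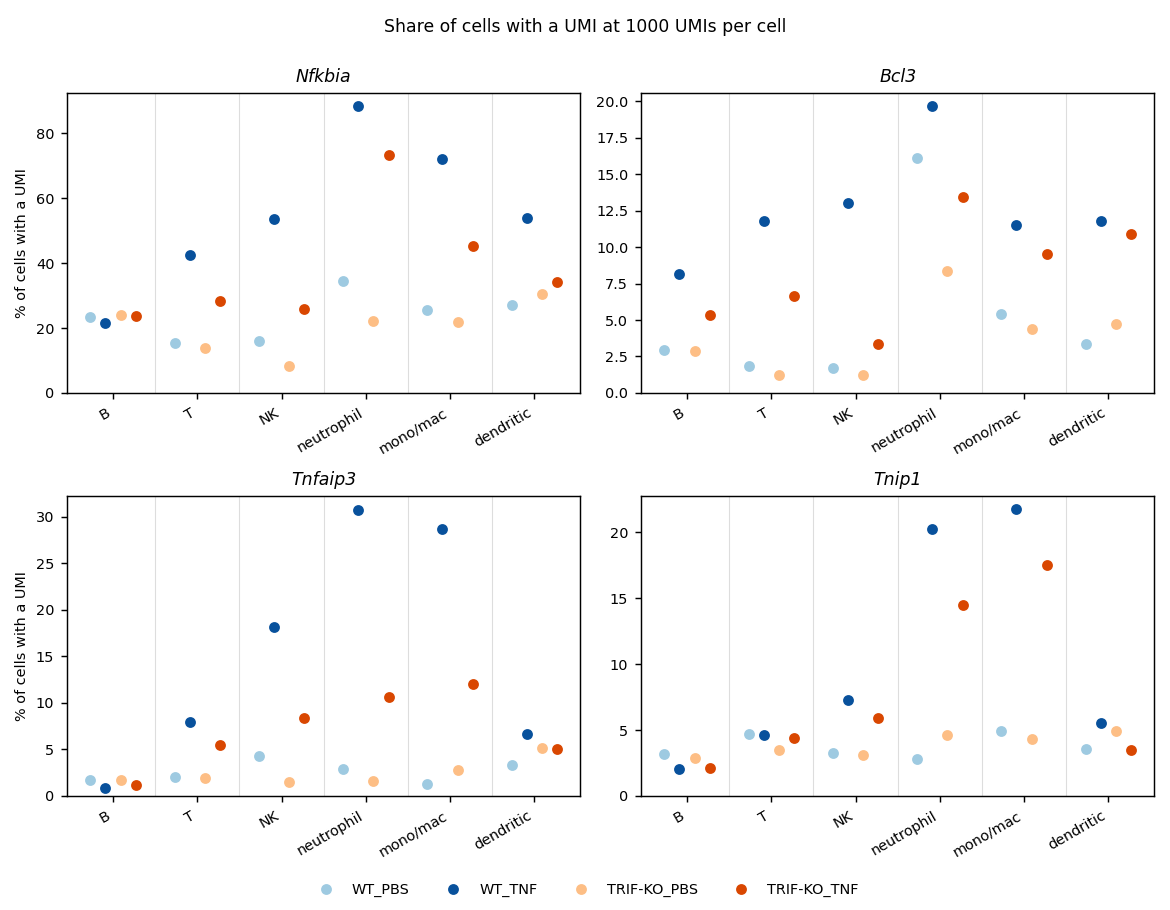
Percentage of cells with at least 1 UMI of Nfkbia, Bcl3, Tnfaip3 and Tnip1 at a common depth of 1000 UMIs for each cell, by class and library, coloured as in the plot of all classes. For Tnfaip3 the WT_TNF point is the highest in each class but B, reaching 30.8% of neutrophil-like cells.

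Other genes of the pathway were counted from lists of 39 genes in 5 groups. In WT B-like cells 1 of 32 measured genes was at least 2-fold higher after TNF, where 1.0% of all genes were. The count was 4 of 29 in T-like cells (2.62%), 3 of 16 in NK-like (4.06%), 5 of 27 in neutrophil-like (10.3%), 7 of 32 in monocyte/macrophage-like (8.84%) and 8 of 26 in dendritic-like cells (7.91%). In TRIF-KO the counts in that order were 1 (1.0%), 4 (1.69%), 3 (3.03%), 4 (9.35%), 5 (8.6%) and 4 (4.65%). Lower in WT were 0 of these genes in B-like (1.99%), 1 in T-like (4.96%), 0 in NK-like (10.5%), 4 in neutrophil-like (23.8%), 3 in monocyte/macrophage-like (20.2%) and 1 in dendritic-like cells (17.4%). In TRIF-KO 0 (0.458%), 0 (0.874%), 1 (5.06%), 1 (20.4%), 1 (10.4%) and 3 (8.59%) were lower. The NF-kB subunit genes Nfkb2 and Relb were higher in both genotypes in T-like, NK-like, neutrophil-like and monocyte/macrophage-like cells, and neither in B-like cells. Relb, for example, was at 24.2, 219, 9.69 and 121 CPM in neutrophil-like cells and at 31.3, 152, 23.4 and 125 CPM in monocyte/macrophage-like cells. Birc3, which encodes a ubiquitin ligase of the TNF receptor complex, was at 27.9, 121, 27.1 and 70.9 CPM in T-like cells, and in neutrophil-like cells after TNF it was at 718 CPM in WT and 302 CPM in TRIF-KO. Of the 8 genes for the IKK complex and its activating kinases, 1 was higher with TNF in WT in any class, Map3k14 in dendritic-like cells (33.3 and 129 CPM), and the same gene was lower in WT monocyte/macrophage-like cells (58.0 and 13.8 CPM).

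Of the other induced inhibitors, Socs3, an inhibitor of cytokine receptor signalling, was the one measured pathway gene at least 2-fold higher in B-like cells, at 6.50, 155, 4.91 and 63.2 CPM, and in T-like cells it was at 63.2, 428, 41.7 and 230 CPM, whereas in WT neutrophil-like cells it was at least 2-fold lower after TNF (549 and 268 CPM). Dusp1, a phosphatase of MAP kinases, was at 8.51, 84.7, 8.55 and 48.3 CPM in B-like cells, from 72, 1084, 108 and 952 UMIs, and was left out of that count because its level there was under 5% of that in another class. Irak3, an inhibitor of Toll-like receptor signalling, was at 30.3, 557, 51.7 and 301 CPM in neutrophil-like cells. In monocyte/macrophage-like cells Dusp1 had a smaller response in TRIF-KO than in WT, by -1.74 (-2.13 to -1.35) on the log2 scale. Cyld, a deubiquitinase that restrains NF-kB, was at 40.01 and 139 CPM after PBS and TNF in WT neutrophil-like cells, and at 93.7 and 79.4 CPM in TRIF-KO, so that the ratio of TNF to PBS was lower in TRIF-KO by -2.05 (-2.87 to -1.23) on the log2 scale. Nfkb1 in dendritic-like cells was at 309 and 117 CPM after PBS and TNF in TRIF-KO.

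Likeness of pattern was described by Pearson's r over 24 values of log2(CPM + 10), 6 classes in 4 libraries, among 7505 genes outside the 9. These points share libraries, depth and the treatment, so no p is given. Tnip1 was closest to Sod2 (r = 0.93) and Gpr84 (0.90), Tnfaip3 to Gbp5 (0.82) and Icam1 (0.81), and Nfkbia to Rnf19b (0.87) and Cd274 (0.85). Nfkbie was closest to Nfkb2 (0.89) and Bcl2a1b (0.88), Nfkbib to Sar1a (0.91) and Abcc1 (0.89), and Nfkbid to Rnf44 (0.85) and Bbip1 (0.75). Nfkbiz was closest to Junb and Fosl2 (both 0.87), and Bcl3 to Birc3 (0.85) and Per1 (0.82). Tnip3, at counts near the floor, was closest to Mt2 (0.94) and Cttnbp2nl (0.89). Among the 9 genes Tnfaip3 stood at 0.86 with both Nfkbia and Tnip1, Nfkbia at 0.84 with Bcl3, and Nfkbid between -0.10 and 0.37 with each of the other 8.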

How the data were processed

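Droplet-based single-cell libraries of spleen were analysed, 1 for each of 4 groups. The authors deposited whole-number UMI counts as filtered matrices of genes by barcodes; per the file headers these came from Cell Ranger 6.0.1, while the submitters' processing notes name Cell Ranger 3.0, Seurat 4.1.1 and build mm10. Seurat output was not used here. The matrices held 23614028, 34774147, 33771809 and 67276803 UMIs. Barcodes with under 200 genes or over 10% mitochondrial UMIs were dropped, 54, 288, 295 and 455 likely doublets were removed (Scrublet, at 0.8% for each 1000 barcodes), and scanpy 1.11.5 clustered the rest on 2000 variable genes and 30 components, without the 9 genes, the pathway lists and other response genes. Leiden resolution 1.5 was chosen after seeing the data, because at 1 a B-cell cluster rich in marginal zone genes took the name of plasma cells, and clusters with plasmacytoid markers were split once at 0.1. Clusters were named from RNA markers by mean enrichment. Counts were summed by class and library. Ratios have exact conditional intervals, CPM exact Poisson intervals, and the difference of 2 responses a normal approximation after adding 0.5 to each count. All are 95% intervals and cover counting error only. No test across groups was made. The scripts were tested on simulated data with known changes. The rule for named genes was all 9 genes, pathway genes with the interval bound nearest no change beyond 2-fold, and the 2 genes most like each of the 9. The members and lists were chosen with earlier results of these data known.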

Additional observations from a re-analysis of the deposited data

Results flagged for a closer look

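Nfkbiz in monocyte/macrophage-like cells stood out because the 2 genotypes went in opposite directions with TNF, each with a counting interval that left out 0. The log2 ratio of TNF to PBS was 0.71 in WT and -0.83 in TRIF-KO, a difference of -1.54 (-2.14 to -0.94), on 87, 81, 106 and 86 UMIs. With 1 library in each group the difference between genotypes was not tested, and the monocyte-like cells of the PBS and TNF libraries come from different clusters. No group held the 4 to 10 samples needed to look for a library apart from its group.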

How the results depend on the processing

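Of the counts of the 9 genes past 2-fold, the 24 that compare 2 libraries (6 classes, 4 comparisons) were repeated under other settings of scaling, weighting, depth, cell filter, doublets, clustering and low-value filter, and 267 of 284 repeats of these stayed within 1.5 times. No log2 value past 2-fold reversed, whether a ratio of 2 libraries or a difference between the 2 responses. Of 64 such values past 2-fold, both kinds together, 63 stayed so with median-of-ratios scaling and 57 with UMIs thinned. With no doublet removal 55 stayed so, and with each cell weighted equally 54. Most of those lost with equal weights were differences between the 2 responses. Clustering resolution 1 and the dendritic cluster alone were chosen after seeing the data. The counts for the difference between the 2 responses are given beside that result, and the counts of pathway lists were not repeated. The cause of the following moves was not tested. The share of all genes past 2-fold was computed again only for the counts of 4 and 5 in the Xcr1 cluster, given above. The other counts here have no background for their setting. At most 5% mitochondrial UMIs gave 1 gene higher with TNF in TRIF-KO B-like cells in place of 0. With no doublet removal, and with a marker gate per cell, 1 gene differed between genotypes after PBS in neutrophil-like cells in place of 2. Weighting cells equally gave 2 in monocyte/macrophage-like cells in place of 0. In dendritic-like cells after PBS 1 gene differed in place of 0 with median-of-ratios scaling, with CPM computed without mitochondrial, ribosomal, haemoglobin and immunoglobulin genes, with thinned UMIs, without the top cell and at resolution 1. After TNF, in place of 0, 1 differed with median-of-ratios scaling and with equal weights, 2 at resolution 1 and 5 in the Xcr1 cluster alone. The WT count of 5 higher genes was 3 with equal weights and at resolution 1, and the TRIF-KO count of 1 was 0 at resolution 1 and 4 in the Xcr1 cluster. The dendritic-like class was not run at 5% mitochondrial UMIs or with the marker gate, which left 25 and 14 cells in the smallest library. No paired analysis was possible because each group holds 1 library. Depth limits the ratios of Nfkbib, Nfkbie and Nfkbid in neutrophil-like cells and everything said of Tnip3.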
